A study of Mus musculus with 8 samples.

Results

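Interferon-stimulated genes are the transcripts that cells raise when interferons signal, and 38 of them were followed here in dissected hearts of mouse embryos (Mus musculus) at E18.5, shortly before birth. The 38 were taken as a named list, chosen with earlier results of these data known. Shares of the list set beside those of all genes therefore describe it and are not a test. All 38 were found by gene symbol among the 49315 genes of the deposited count tables. They were among the 16372 genes that passed the filter on low counts. The study compared 4 wild type (WT) hearts with 4 hearts homozygous for the M195I change in CHD4, an ATPase that moves nucleosomes and is the motor subunit of the NuRD complex. The labels name no treatment, number the samples 1 to 4 within a genotype, and do not give litter, strain, how the allele was made, or whether a library holds 1 heart or several. P-values therefore measure the spread between these samples, which may in part be technical. The count table headers mark all 8 as male.

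Interferons of type I and type III bind receptors that activate the kinases JAK1 and TYK2, and these phosphorylate transcription factors such as STAT2. A complex that holds STAT2 and IRF9 binds the interferon-stimulated response element (ISRE) in promoters, which raises sensors of foreign nucleic acid, antiviral effectors, and brakes on the pathway itself. Interferon of type II acts at the gamma-activated site (GAS), and induces antigen presentation and guanylate-binding proteins. Many of these genes have a basal level in unstimulated tissue, and cardiomyocytes, endothelial cells, fibroblasts and resident macrophages all carry the type I receptor.

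Libraries held between 18375951 and 21341235 counts. Levels are in CPM, a gene's counts relative to its TMM-scaled library total, with mean ± SD over n = 4 unless single libraries are given. Differences between genotypes are log2 fold changes ± standard error, positive where mutants were higher. Genes were tested by edgeR's quasi-likelihood method, and a gene was called where its p, adjusted by Benjamini-Hochberg over every gene tested, was under 0.05. Chd4 stood at 452 ± 6.37 CPM over WT libraries and 482 ± 8.48 CPM in the mutants (0.09 ± 0.03, adjusted p = 0.094), and the counts do not show the mutated codon. RNA of airway epithelium was present in some hearts: Scgb3a2, a secretoglobin of airway cells, reached 176 to 498 CPM (of unscaled totals) in 3 WT hearts, numbers 1, 3 and 4, and in mutants 3 and 4. Elsewhere it was at 0.328 to 6.48 CPM. All libraries carried Y-linked transcripts, with a summed level of 4 genes between 202 and 217 CPM except in WT replicate 4, at 103 CPM. Mutant replicate 1 was within the range of the other libraries in genes with a count (24015, against 23954 to 25049 elsewhere). The same held for the mitochondrial share of counts (4.86%, against 4.40% to 4.95%). These measures do not cover RNA quality or batch, and a technical part in the values of this library was not tested. The 6 cardiomyocyte markers summed to 52476 to 59238 CPM in WT and 44064 to 49705 CPM in mutants. In bulk tissue, fewer cells of a type and less RNA per cell cannot be told apart.

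The ISRE is the element that STAT2 and IRF9 act through, so promoter stretches that hold it are shown for some members whose levels the results turn on. RefSeq promoter windows (build GRCm38.p6, 250 bases before to 50 after a start) were matched by symbol for 28 of the 38 members. Oas2, Mx1, Mx2, Usp18, Ifi27, Dhx58, Zbp1, Parp9, Parp14 and Rtp4 had no matched window. The ISRE core was searched as GAAA, any 2 bases, GAAA, and the GAS core as TTCNNNGAA with N for any base, both on either strand; matches of one motif may overlap each other and those of the other motif. An ISRE core lay in the windows of 14 of the 28 members, against 3.99% of the 27025 genes with a window. A GAS core lay in those of 4 members (14.3%), against 9.55% of genes. Of the members that rose in the comparison of all libraries, Ddx60 had 2 ISRE cores, at 53 to 10 bases before the start, whereas the windows of Tnfsf10, Dtx3l and Herc6 held no ISRE core. The stretches below lie before the start and are written 5′ to 3′ on the strand of the gene, with ISRE core matches in capitals (TTTC marks the other strand). Ddx60 is shown first. Isg15, Oas1a, Gbp3 and Trim30a passed the threshold without mutant replicate 1 and not with it, and they and the pair Ifit3 and Ifit3b were chosen after their values were seen.
Ddx60, chr8:61928014-61928086, plus strand: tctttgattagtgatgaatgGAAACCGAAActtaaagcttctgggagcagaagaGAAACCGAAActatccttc
Isg15, chr4:156200855-156200916, minus strand: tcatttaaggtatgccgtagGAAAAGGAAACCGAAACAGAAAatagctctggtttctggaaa
Oas1a, chr5:120907526-120907565, minus strand: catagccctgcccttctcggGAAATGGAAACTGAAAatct
Gbp3, chr3:142559979-142560034, plus strand: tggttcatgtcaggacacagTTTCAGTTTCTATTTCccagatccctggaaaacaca
Trim30a, chr7:104465200-104465249, minus strand: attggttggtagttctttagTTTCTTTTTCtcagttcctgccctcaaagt
Ifit3, chr19:34583353-34583436, plus strand: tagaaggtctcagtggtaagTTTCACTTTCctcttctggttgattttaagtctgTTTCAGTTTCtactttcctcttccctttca
Ifit3b, chr19:34607749-34607832, plus strand: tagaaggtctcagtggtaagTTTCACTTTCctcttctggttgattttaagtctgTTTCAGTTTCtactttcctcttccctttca
In Isg15 the 3 matches overlap and form 1 run, and in Oas1a and Gbp3 the 2 matches overlap. Ddx60 differs from these in having its 2 identical cores apart from each other. The stretches of Ifit3 and Ifit3b are letter for letter the same over 84 bases. They lie before the start, so they do not bear on how reads were divided between these neighbouring copies.

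Across the 4 mutant hearts, 5 interferon-stimulated genes rose and none fell: Tnfsf10, Ddx60, Dtx3l, Parp9 and Herc6. That is 13.2% of the 38, where 5.75% of all genes tested were called higher and 7.49% lower. At an unadjusted p under 0.05, 9 members were higher (23.7%) and 0 lower, against 12.4% and 14% of genes. DESeq2 called 6 higher and 0 lower of the 34 members to which it gave an adjusted p, against 6.75% and 8.87% of 13829 genes. Scaling by library totals in place of TMM turned the split over all genes from 942 higher and 1226 lower to 1856 higher (11.3%) and 858 lower, and again called 5 members higher and 0 lower. The median log2 fold change of the 38 was 0.35, with 33 above 0 (36 with library totals), beside -8.03e-06 over all genes tested. The 4 mutants lay above all 4 WT for 4 members (10.5%), against 8.8% of all genes, so by that count the list was close to its background.

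The mutant group was divided in these genes. Mutant replicate 1 had the lowest value of all 8 libraries for 28 of the 38 members (73.7%), which was also below every WT library, where 12.7% of all tested genes had their lowest value in it and 27.7% lay below all 4 WT there. Mutant replicates 2, 3 and 4 all lay above every WT library for 21 members (55.3%), against 11.5% of genes. Both held at once for 12 members (31.6%), against 0.531% of genes: Irf7, Irf9, Oas1a, Oas3, Oasl2, Ifih1, Ifi44, Xaf1, Trim30a, Parp14, Cmpk2 and Tap1. The median over the 38 of the log2 ratio to the WT mean was -0.46 in mutant replicate 1, and 0.42, 0.39 and 0.68 in mutant replicates 2, 3 and 4. In WT hearts it was -0.07, -0.07, 0.16 and -0.06 in replicates 1 to 4. Mutant replicate 4 had the highest value for 30 members, where 14.7% of all tested genes had their highest value in it. WT replicate 3 was the highest WT library by the median.

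**Figure D1:**
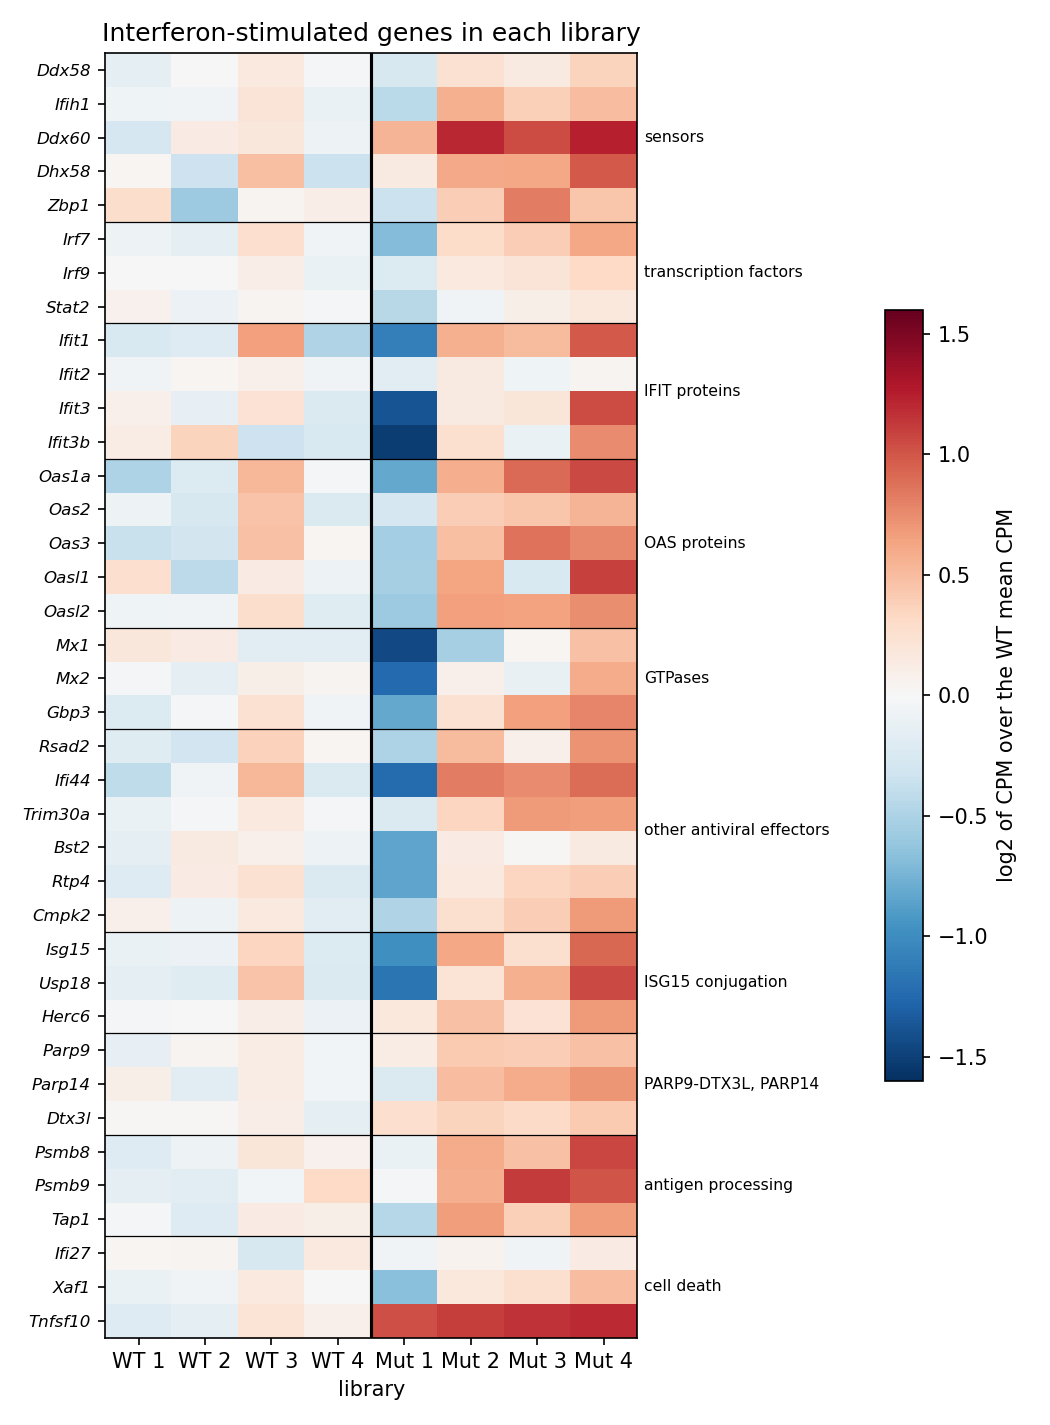
Heat map of the 38 genes (rows, by role) in the 8 libraries (columns); colour is the log2 of a library's CPM over the WT mean CPM of that gene. Mutant replicate 1 (median -0.46) is blue for most genes while mutant replicates 2 to 4 (medians 0.42, 0.39 and 0.68) are red; Tnfsf10 and Ddx60 are red in all 4 mutants.

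Without mutant replicate 1, 21 members were called higher and none lower, where 5.13% of 16581 genes were called higher and 6.86% lower. All 38 log2 fold changes were then above 0, with a median of 0.50 (0.0036 over all genes). This library was singled out for its low values, so leaving it out raises the mutant level by construction, and the count is a description of the other 7 libraries. Leaving out any other library gave between 4 and 6 called members. Without mutant replicate 4, the library with the highest values, 4 were called and the median was 0.16. Among the 5 libraries with airway RNA, 17 members were called higher and none lower, against 3.63% and 6.33% of 16784 genes. Of the 17, 16 were among the 21, and that overlap is not independent, since these 5 libraries are among the 7. Mutant replicate 1 is left out here too, since it is not among the libraries with airway RNA. Among the 3 libraries without it, where WT has 1 library that is assumed to vary like the mutants, 2 were called higher, against 3.54% of 16793 genes. With airway RNA as a covariate over all 8 libraries, 9 were called higher (23.7%), against 7.59% of genes (1242 higher and 1650 lower). Xist, at 1.28 to 1.58 CPM in WT and 1.53 to 1.92 CPM in mutants, was tried as a covariate. These low levels went largely with genotype, so the fit could not fully separate Xist from genotype. Calls kept or lost and signs changed in that fit therefore could not be assigned to Xist or to genotype. Tnfsf10 was the 1 member called with the Xist covariate, and the member median was -0.02. Over all genes, 140 (0.855%) were then called higher and 186 lower. Ddx60 was not called there, at 0.90 ± 0.28 (adjusted p = 0.12), with a standard error of 0.16 before.

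**Figure D2:**
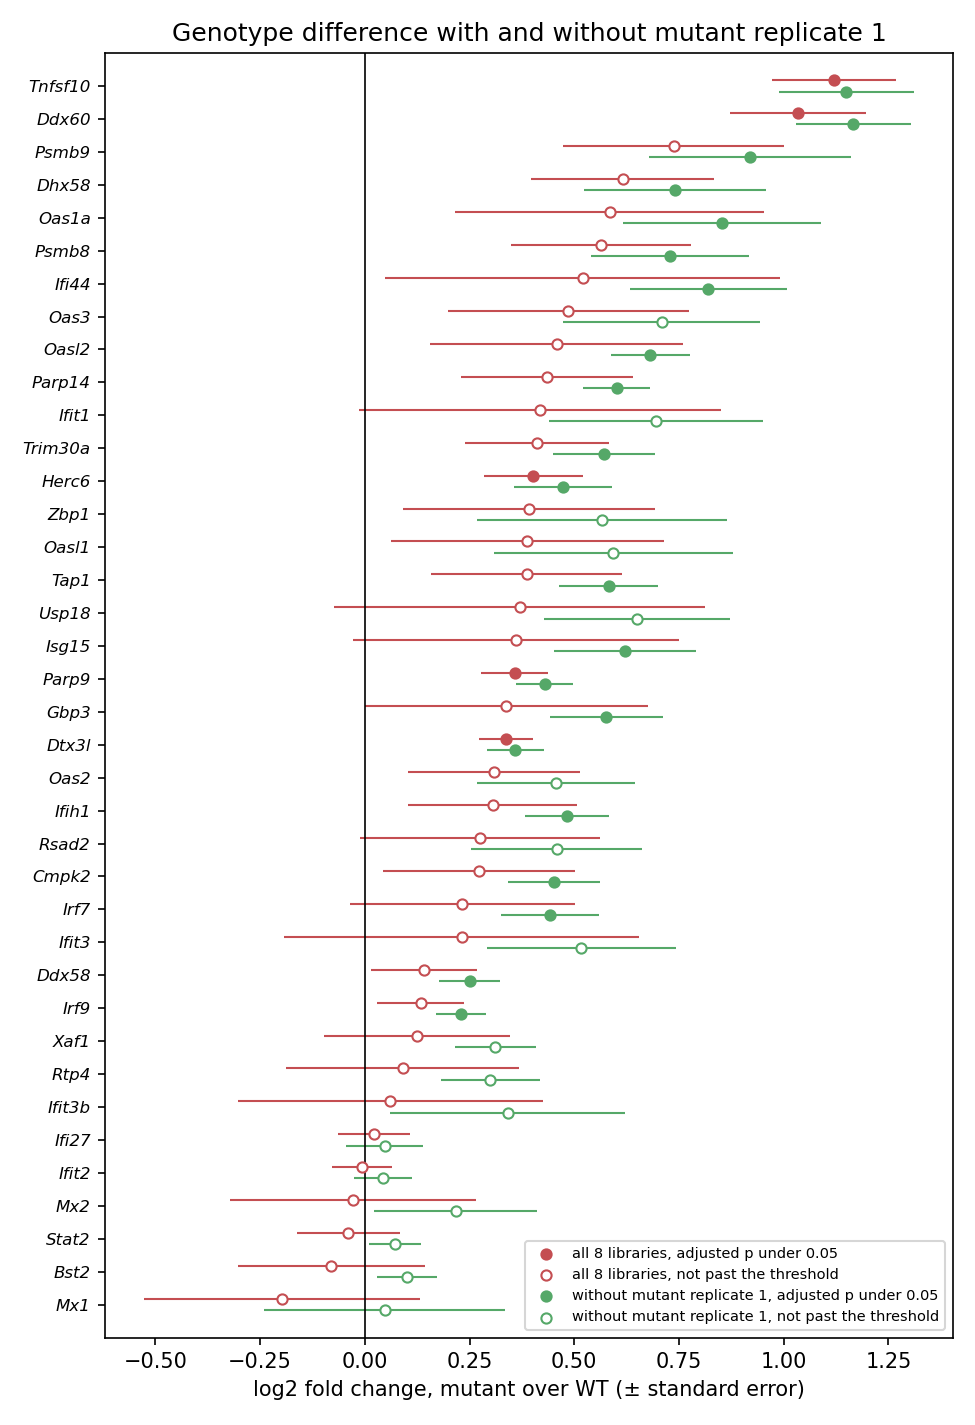
Log2 fold change of each of the 38 genes, mutant over WT, with bars of 1 standard error, from all 8 libraries (red) and without mutant replicate 1 (green); filled points passed an adjusted p of 0.05. In red 5 genes are filled and in green 21, and every green point lies above 0.

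Among the cytosolic sensors of foreign nucleic acid, Ddx60, a helicase reported to assist RIG-I, rose about 2-fold (log2 fold change 1.03 ± 0.16, adjusted p = 0.00067). It was at 2.83, 3.75, 3.86 and 3.22 CPM in WT replicates 1 to 4 and at 4.97, 7.91, 7.01 and 8.11 CPM in mutant replicates 1 to 4. All 4 mutants were above all 4 WT, with mutant replicate 1 the lowest of the mutants. Ddx58, which encodes RIG-I, stood at 24.8, 27.2, 30.6 and 27.1 CPM in WT replicates 1 to 4 and at 23.03, 32.5, 30.2 and 35.2 CPM in mutant replicates 1 to 4, with mutant replicate 1 below every WT library and replicate 3 inside the WT range. Its difference was 0.14 ± 0.13, adjusted p = 0.55, and 0.25 ± 0.07, adjusted p = 0.037 without mutant replicate 1. Ifih1, which encodes MDA5, a sensor of long double-stranded RNA, was at 7.997, 8.04, 9.64 and 7.78 CPM in WT replicates 1 to 4 and at 6.18, 12.4, 10.9 and 11.8 CPM in mutant replicates 1 to 4. Here 3 mutants were above all WT and mutant replicate 1 below all WT (0.30 ± 0.20, adjusted p = 0.4; 0.48 ± 0.10, adjusted p = 0.0062 without that library). Dhx58 encodes LGP2, which tunes the other sensors, and was at 2.23, 1.75, 3.07 and 1.72 CPM in WT replicates 1 to 4 and at 2.43, 3.35, 3.35 and 4.32 CPM in mutant replicates 1 to 4. The values of mutant replicate 1 lay within the WT range and those of the other mutants above it (0.62 ± 0.22, adjusted p = 0.079; 0.74 ± 0.22, adjusted p = 0.04 without mutant replicate 1). Zbp1, a sensor of Z-form nucleic acid, was the scarcest member per length and did not pass in either fit, with 9 to 23 counts per library.

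Of the transcription factors of the pathway, Irf7 and Irf9 showed the divided pattern and Stat2 shared the low value of mutant replicate 1. Irf7, which amplifies type I interferon production, was at 7.83, 7.44, 9.99 and 7.999 CPM in WT replicates 1 to 4 and at 5.12, 10.2, 10.9 and 12.8 CPM in mutant replicates 1 to 4. Mutant replicate 1 was below and the other mutants above every WT heart, and the difference over all libraries was 0.23 ± 0.27, adjusted p = 0.67 (0.44 ± 0.12, adjusted p = 0.024 without mutant replicate 1). Irf9, the DNA-binding partner of STAT2, was at 34.7, 34.5, 37.5 and 32.3 CPM in WT replicates 1 to 4 and at 29.9, 38.8, 40.2 and 43.4 CPM in mutant replicates 1 to 4. The same split was seen within a narrower range (0.13 ± 0.10, adjusted p = 0.48; 0.23 ± 0.06, adjusted p = 0.021 without mutant replicate 1). Exons of Irf9 share 123 bases with Rnf31 on the same strand. Stat2, the partner of Irf9, was at 36.4, 32.5, 35.9 and 34.2 CPM in WT replicates 1 to 4 and at 25.5, 33.5, 37.0 and 39.0 CPM in mutant replicates 1 to 4. Mutant replicate 1 was below all others, whereas mutant replicate 2 lay inside the WT range and the gene was called in neither fit (-0.04 ± 0.12, adjusted p = 0.9; 0.07 ± 0.06, adjusted p = 0.53 without mutant replicate 1).

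The IFIT proteins bind foreign RNA and block its translation, and none of the 4 was called in either fit. Ifit2 was nearly level across all hearts, from 20.1 to 24.9 CPM. Ifit1, Ifit3 and Ifit3b were scarcer, and each was lowest in mutant replicate 1 (1.06, 1.00 and 0.370 CPM) and highest in mutant replicate 4 (4.46, 5.37 and 1.77 CPM). Ifit3 and Ifit3b are close copies, and how reads were divided between them is uncertain, as it is among the Oas genes. Likeness of the transcripts was not measured.

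The OAS family includes enzymes that make oligoadenylates, which activate the RNA-cutting enzyme RNase L. Oasl2 was the most abundant of the 5, at 18.6, 18.8, 23.7 and 17.1 CPM in WT replicates 1 to 4 and at 13.1, 30.9, 30.6 and 32.6 CPM in mutant replicates 1 to 4. Mutant replicates 2 to 4 lay in a narrow band above every WT heart and mutant replicate 1 below every WT heart (0.46 ± 0.30, adjusted p = 0.41; 0.68 ± 0.09, adjusted p = 0.00077 without mutant replicate 1). Oas1a, whose promoter stretch with an ISRE run is printed above, was at 1.20, 1.45, 2.42 and 1.67 CPM in WT replicates 1 to 4 and at 0.951, 2.51, 3.15 and 3.502 CPM in mutant replicates 1 to 4. WT replicate 3 was close to mutant replicate 2, and mutant replicate 1 was the lowest library (0.58 ± 0.37, adjusted p = 0.37; 0.85 ± 0.24, adjusted p = 0.03 without it). Oas2, Oas3 and Oasl1 were not called in either fit, with log2 fold changes from 0.31 to 0.49 over all libraries.

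**Figure D3:**
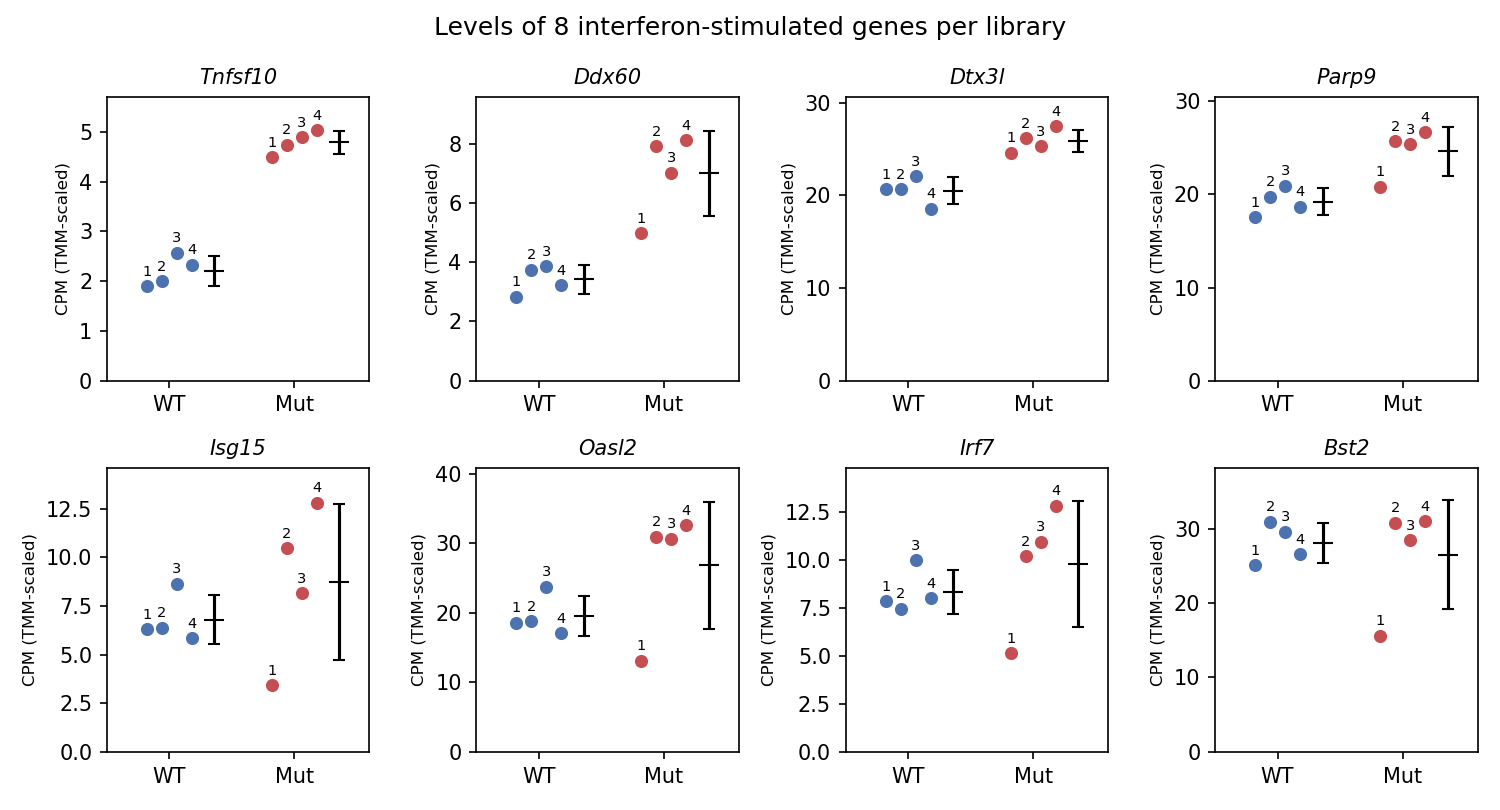
CPM of 8 genes in each library (points, labelled by replicate number; blue WT, red mutant), with the mean and SD of each genotype beside the points. For Tnfsf10, Ddx60 and Dtx3l the 4 mutants lie above all WT; for Isg15, Oasl2, Irf7 and Bst2 mutant replicate 1 is the lowest library.

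The dynamin-like GTPases Mx1 and Mx2, which block virus replication, were scarce and not called. Mx1 had 7 to 29 counts per library and Mx2 21 to 83, and both were lowest in mutant replicate 1. Gbp3, a guanylate-binding protein that also carries overlapping ISRE cores, was at 7.997, 9.14, 11.0 and 8.94 CPM in WT replicates 1 to 4 and at 5.28, 11.0, 14.6 and 16.0 CPM in mutant replicates 1 to 4. Mutant replicate 2 was level with WT replicate 3, mutant replicates 3 and 4 were higher and mutant replicate 1 was the lowest (0.34 ± 0.34, adjusted p = 0.61; 0.58 ± 0.13, adjusted p = 0.017 without mutant replicate 1).

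Bst2, or tetherin, which holds budding virus at the cell surface, had the highest level per length of the 38 (30.2 CPM per kilobase of exon, mean of 8 libraries). It was at 25.1, 30.9, 29.6 and 26.6 CPM in WT replicates 1 to 4 and at 15.6, 30.8, 28.5 and 31.0 CPM in mutant replicates 1 to 4. Mutant replicates 2 to 4 were within or just above the WT range and mutant replicate 1 stood far below it, and no difference was called (-0.08 ± 0.22, adjusted p = 0.89; 0.10 ± 0.07, adjusted p = 0.43 without mutant replicate 1). Cmpk2, a mitochondrial nucleotide kinase, and Rsad2, or viperin, which makes a chain-terminating nucleotide, lie side by side on chromosome 12. Cmpk2 was at 11.6, 10.4, 12.3 and 9.72 CPM in WT replicates 1 to 4 and at 7.92, 13.2, 14.5 and 17.7 CPM in mutant replicates 1 to 4. It showed the divided pattern (0.27 ± 0.23, adjusted p = 0.53; 0.45 ± 0.11, adjusted p = 0.016 without mutant replicate 1), while Rsad2 was called in neither fit (0.28 ± 0.29, adjusted p = 0.63; 0.46 ± 0.20, adjusted p = 0.22).

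Ifi44, an interferon-induced cytoplasmic protein, was at 3.64, 4.64, 6.97 and 4.11 CPM in WT replicates 1 to 4 and at 2.06, 8.51, 8.20 and 9.02 CPM in mutant replicates 1 to 4. The lowest heart was mutant replicate 1, below all WT, and the other 3 mutants lay close together above WT (0.52 ± 0.47, adjusted p = 0.57; 0.82 ± 0.19, adjusted p = 0.016 without mutant replicate 1). Trim30a, a TRIM family protein, was at 5.22, 5.54, 6.28 and 5.50 CPM in WT replicates 1 to 4 and at 4.81, 7.16, 9.08 and 8.92 CPM in mutant replicates 1 to 4. Mutant replicate 1 lay just below the WT range and the others above it (0.41 ± 0.17, adjusted p = 0.15; 0.57 ± 0.12, adjusted p = 0.0068 without mutant replicate 1). Rtp4, a chaperone of membrane receptors with antiviral activity, was called in neither fit (0.09 ± 0.28, adjusted p = 0.9; 0.30 ± 0.12, adjusted p = 0.13).

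ISG15 is a ubiquitin-like protein that is joined to other proteins by the ligase HERC6 in mice and removed by USP18. Herc6 rose (0.40 ± 0.12, adjusted p = 0.035), at 6.53, 6.59, 7.12 and 6.17 CPM in WT replicates 1 to 4 and at 7.39, 9.16, 7.74 and 10.6 CPM in mutant replicates 1 to 4. All 4 mutants were above all WT, mutant replicate 1 only slightly so, and 5 of the 8 fits that left out 1 library lost the call, namely those without WT 1, 2 or 4 and without mutant 2 or 4 (adjusted p up to 0.115). Isg15 itself was at 6.31, 6.39, 8.66 and 5.83 CPM in WT replicates 1 to 4 and at 3.43, 10.5, 8.15 and 12.8 CPM in mutant replicates 1 to 4. Mutant replicate 1 had the lowest level of all hearts and mutant replicate 4 the highest, so the genotypes overlapped (0.36 ± 0.39, adjusted p = 0.65; 0.62 ± 0.17, adjusted p = 0.039 without mutant replicate 1). Usp18, which also restrains the type I receptor, likewise had its lowest level in mutant replicate 1 (1.74 CPM) and its highest in mutant replicate 4 (8.15 CPM), and was called in neither fit. It lies 3.83 Mb from Chd4 on chromosome 6, so alleles of the 2 genes may have been inherited together, which was not tested. Exons of Herc6 share 1269 bases with Gm45193, an annotated gene with a mean count of 0, on the same strand. How reads in those bases were counted is uncertain.

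PARP9 and DTX3L form a complex of an ADP-ribosyltransferase and a ubiquitin ligase, and their genes lie head to head on chromosome 16 (Dtx3l from 35926511 to 35939151, Parp9 from 35938470 to 35972605, GRCm38). Dtx3l rose (0.34 ± 0.06, adjusted p = 0.0029), at 20.7, 20.7, 22.1 and 18.6 CPM in WT replicates 1 to 4 and at 24.6, 26.1, 25.3 and 27.4 CPM in mutant replicates 1 to 4. All 4 mutants were above all 4 WT. Parp9 rose by a like amount (0.36 ± 0.08, adjusted p = 0.0082), at 17.6, 19.8, 20.9 and 18.7 CPM in WT replicates 1 to 4 and at 20.8, 25.7, 25.4 and 26.7 CPM in mutant replicates 1 to 4. Here mutant replicate 1 lay just under the highest WT heart. The 2 genes share 458 exonic bases on opposite strands, and no source used here says whether counting used strand. How reads of the 2 genes were counted in those bases is therefore uncertain. Both kept their call in each of the 8 fits that left out 1 library. Neither was called with Xist as a covariate, a fit that could not fully separate Xist from genotype. The log2 fold changes there were 0.25 ± 0.10 for Dtx3l (adjusted p = 0.27) and 0.30 ± 0.14 for Parp9 (adjusted p = 0.33). Parp14, a related enzyme on the same chromosome, was at 19.5, 16.1, 19.9 and 17.8 CPM in WT replicates 1 to 4 and at 15.5, 25.8, 27.7 and 29.8 CPM in mutant replicates 1 to 4. It parted from its neighbours in mutant replicate 1, which lay below every WT heart, while the other 3 mutants were well above (0.44 ± 0.21, adjusted p = 0.24; 0.60 ± 0.08, adjusted p = 0.00031 without mutant replicate 1).

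Antigen processing was represented by the immunoproteasome subunits Psmb8 and Psmb9 and by Tap1, which moves peptides into the endoplasmic reticulum. Psmb8 was at 2.07, 2.25, 2.72 and 2.4996 CPM in WT replicates 1 to 4 and at 2.22, 3.58, 3.30 and 4.99 CPM in mutant replicates 1 to 4. Psmb9 was scarcer, at 0.925, 0.899, 0.989 and 1.28 CPM in WT replicates 1 to 4 and at 1.00, 1.54, 2.22 and 2.06 CPM in mutant replicates 1 to 4. For both, mutant replicate 1 lay inside the WT range and the other mutants above it, and neither was called over all libraries (0.56 ± 0.22, adjusted p = 0.1; 0.74 ± 0.26, adjusted p = 0.081). Without mutant replicate 1 the values were 0.73 ± 0.19, adjusted p = 0.021 for Psmb8 and 0.92 ± 0.24, adjusted p = 0.022 for Psmb9. Tap1 was at 6.09, 5.39, 6.83 and 6.67 CPM in WT replicates 1 to 4 and at 4.54, 9.96, 8.15 and 9.93 CPM in mutant replicates 1 to 4. Its value in mutant replicate 1 was under every WT heart (0.39 ± 0.23, adjusted p = 0.34; 0.58 ± 0.12, adjusted p = 0.0054 without mutant replicate 1). Exons of Tap1 and Psmb9 share 212 bases on opposite strands.

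Among the genes of cell death, Tnfsf10 had the largest log2 fold change of the 38 over all 8 libraries; that of Ddx60 was larger without mutant replicate 1 (1.17 against 1.15), without WT replicate 2 (1.08 against 1.07) and in the libraries with airway RNA (1.19 against 1.12). It encodes TRAIL, a ligand that can trigger apoptosis, and was at 1.90, 1.998, 2.57 and 2.33 CPM in WT replicates 1 to 4 and at 4.49, 4.75, 4.90 and 5.04 CPM in mutant replicates 1 to 4. The lowest mutant heart was well above the highest WT heart, and mutant replicate 1 was close to the other mutants (1.12 ± 0.15, adjusted p = 0.00019). Its call stood in each of the 8 fits that left out 1 library (log2 fold change from 1.06 to 1.20). It was also called with Xist as a covariate, a fit that could not fully separate Xist from genotype. Ifi27, a mitochondrial protein with the second highest level per length, was at 18.2, 18.3, 14.8 and 19.8 CPM in WT replicates 1 to 4 and at 17.1, 18.47, 17.1 and 19.5 CPM in mutant replicates 1 to 4. The genotypes overlapped in full (0.02 ± 0.09, adjusted p = 0.92; 0.05 ± 0.09, adjusted p = 0.82 without mutant replicate 1). Xaf1, which antagonises an inhibitor of apoptosis, had 3 mutants above and mutant replicate 1 below all WT, but was called in neither fit (0.13 ± 0.22, adjusted p = 0.8; 0.31 ± 0.10, adjusted p = 0.051 without mutant replicate 1). None of 10 genes for TRAIL receptors and their death signalling was called, with or without mutant replicate 1. Over all 8 libraries, 5.75% of all genes tested were called higher and 7.49% lower.

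Levels per length of exon differed widely within the list. After Bst2 came Ifi27 (12.2 CPM per kilobase), Isg15 (10.3), Stat2 (7.79) and Irf9 (6.76), as means of the 8 libraries. Tnfsf10 and Ddx60, with the largest fold changes over all libraries, were near the bottom of this order, at 0.664 and 0.599 CPM per kilobase. The lowest levels were those of Oas3 (0.249) and Zbp1 (0.219).

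Other interferon-induced genes shared the division of the mutants in part. Of 69 such genes, 64 were tested, 7 rose and 1 fell (Irf8, a factor of myeloid cells, -0.26 ± 0.07, adjusted p = 0.027), with a median of 0.16. Over all genes tested, 5.75% were called higher and 7.49% lower. The median log2 ratio of the 64 to the WT mean was -0.17 in mutant replicate 1. It was 0.17, 0.20 and 0.35 in mutant replicates 2 to 4. Gbp4 (0.44 ± 0.10, adjusted p = 0.0066) and Trim14, an adaptor on mitochondria (0.98 ± 0.21, adjusted p = 0.0069), had the smallest adjusted p of the 7. Trim14 was at 0.870, 0.749, 1.04 and 1.06 CPM in WT replicates 1 to 4 and at 1.95, 1.81, 2.01 and 1.58 CPM in mutant replicates 1 to 4. As with Tnfsf10, mutant replicate 1 did not stand apart there. Without that library 22 rose and none fell, with a median of 0.24, where 5.13% of all genes were called higher and 6.86% lower.

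Transcripts of the interferons themselves were almost absent. Of 21 interferon genes, 16, including Ifnb1, Ifnl2, Ifnl3 and Ifna4, had a count of 0 in every library, and the other 5 had 17 counts in all 8 libraries together. A count of 0 allows a level of up to 0.141 to 0.163 CPM, depending on the library. Of 14 receptors and JAK-STAT components none rose and 2 fell, with a median of -0.0031. Those that fell were Il10rb (-0.29 ± 0.04, adjusted p = 0.00059), a chain of the type III receptor, and Stat3 (-0.16 ± 0.04, adjusted p = 0.028). As background for this list and the next, 5.75% of all genes tested were called higher and 7.49% lower. Of 20 tested genes for nucleic acid sensing upstream of interferon, Samhd1 (0.17 ± 0.05, adjusted p = 0.037), which depletes nucleotides, rose, and the adaptors Mavs (-0.39 ± 0.06, adjusted p = 0.0011) and Ticam1 (-0.25 ± 0.06, adjusted p = 0.014) fell. Mavs, through which RIG-I and MDA5 signal, was at 51.9, 47.8, 50.6 and 49.6 CPM in WT replicates 1 to 4 and at 41.5, 41.6, 36.3 and 33.8 CPM in mutant replicates 1 to 4. All 4 mutants were below all WT, and mutant replicate 1 was among the higher mutants.

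Antigen presentation was read from 2 lists. Over all genes tested, 5.75% were called higher and 7.49% lower (5.13% and 6.86% without mutant replicate 1). Of 13 tested genes of MHC class I presentation, the proteasome activator Psme2 rose (0.20 ± 0.06, adjusted p = 0.032) and none fell, and 3 rose without mutant replicate 1. Of 10 tested genes induced by interferon gamma or of MHC class II, 3 rose, among them H2-Eb1 (1.00 ± 0.22, adjusted p = 0.0074), a class II chain, and Irf1 (0.30 ± 0.08, adjusted p = 0.017), a transcription factor. Irf1 and the third, Gbp2, also belong to the interferon-induced genes above. The median log2 ratio of this list was above 0 in every mutant, from 0.22 in mutant replicate 1 to 0.48 in mutant replicate 3, whereas for MHC class I it was -0.11 in mutant replicate 1 and 0.14 to 0.15 in the others.

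**Figure D4:**
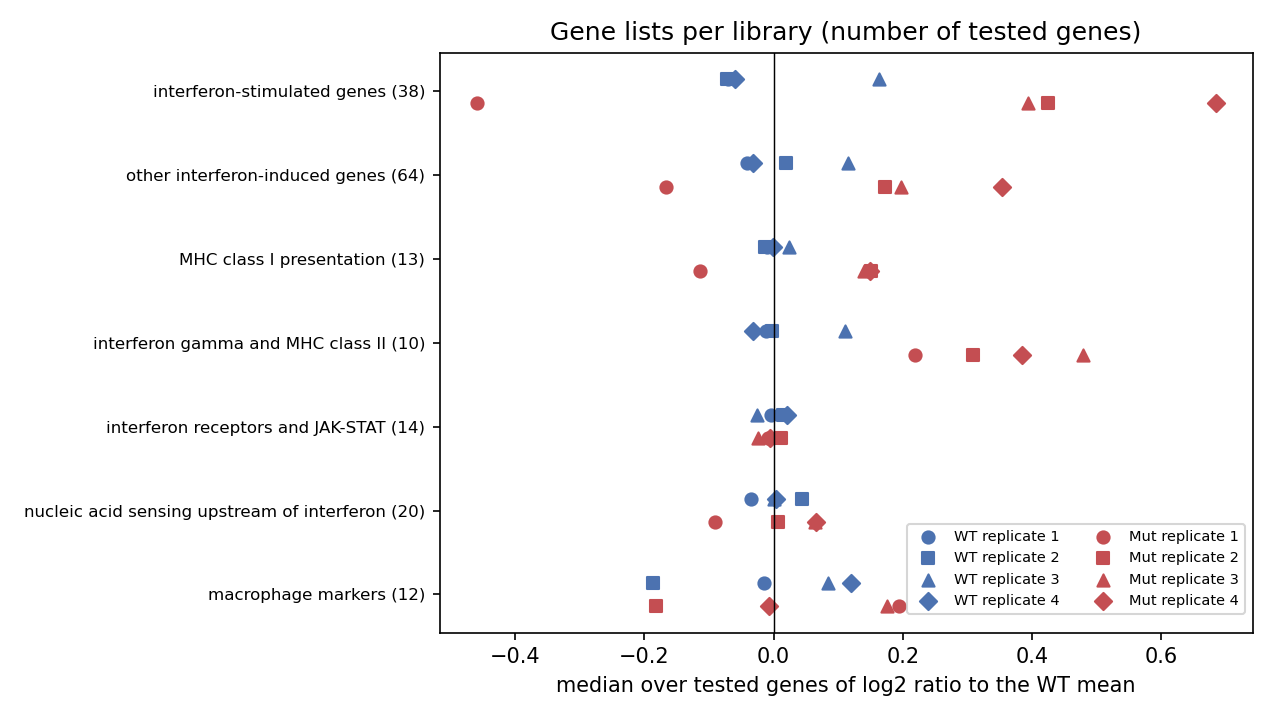
Median over the tested genes of each list (number in brackets) of the log2 ratio to the WT mean, 1 point per library (blue WT, red mutant, shape by replicate number). In the interferon-stimulated genes mutant replicate 1 is at -0.46 and the other mutants are at 0.39 to 0.68; receptors and JAK-STAT genes lie near 0 in all 8 libraries.

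None of the summed marker levels given here was lowest in mutant replicate 1. Its erythroid, endothelial and cardiomyocyte sums did lie below every WT library. The cardiomyocyte sum was 47242 CPM there, against 52476 to 59238 CPM in WT. Its macrophage and plasmacytoid dendritic cell sums lay above every WT library. The summed level of 12 macrophage markers was 132 to 165 CPM in WT, 166 CPM in mutant replicate 1 and 136 to 164 CPM in the other mutants, and 1 of the 12, Cx3cr1, was called (higher, 0.48 ± 0.12, adjusted p = 0.013). The 4 markers of plasmacytoid dendritic cells, which are strong producers of type I interferon, summed to 0.643 to 0.949 CPM in WT, 1.06 CPM in mutant replicate 1 and 0.465 to 1.39 CPM in the other mutants. The 14 markers of lymphocytes and thymocytes summed to 0.979 to 2.52 CPM in WT, 1.27 CPM in mutant replicate 1 and 0.567 to 3.84 CPM in the other mutants, and Foxn1 was at 0 in every library. The 5 neutrophil markers summed to 2.03 to 5.17 CPM in WT, 4.86 CPM in mutant replicate 1 and 2.84 to 6.43 CPM in the other mutants. The 6 erythroid markers summed to 2026 to 3879 CPM in WT, 1959 CPM in mutant replicate 1 and 1241 to 1614 CPM in the other mutants, with none called. The 9 airway and lung markers summed to 2.40 to 515 CPM in WT, 10.9 CPM in mutant replicate 1 and 1.40 to 783 CPM in the other mutants. Beside these sums, the median log2 ratio of the interferon-stimulated genes was -0.46, 0.42, 0.39 and 0.68 in mutant replicates 1 to 4. Scgb3a2 was there at 6.48, 0.328, 284 and 498 CPM of unscaled totals. In WT replicates 1 to 4 the median was -0.07, -0.07, 0.16 and -0.06, with Scgb3a2 at 385, 0.817, 436 and 176 CPM. The part of airway RNA in these medians was not tested. Markers of the heart's own cells leaned lower in mutants. A log2 fold change above 0 was seen for 0 of 6 cardiomyocyte, 0 of 4 fibroblast and 2 of 5 endothelial markers. Of 5 endothelial markers Tek rose (0.20 ± 0.04, adjusted p = 0.004) and Kdr fell (-0.18 ± 0.04, adjusted p = 0.017). Of 4 fibroblast markers Tcf21 fell (-0.25 ± 0.05, adjusted p = 0.0054), and of the 6 cardiomyocyte markers Actc1 fell (-0.44 ± 0.06, adjusted p = 0.00018). As background for the marker lists, 5.75% of all genes tested were called higher and 7.49% lower. The endothelial sum was 950 to 1014 CPM in WT, 934 CPM in mutant replicate 1 and 905 to 993 CPM in the other mutants. The fibroblast sum was 2322 to 3164 CPM in WT, 2793 CPM in mutant replicate 1 and 2596 to 2771 CPM in the other mutants. The part of cell composition in the differences of the interferon-stimulated genes was not tested.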

How the data were processed

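Bulk RNA-seq of E18.5 hearts gave 8 libraries, 4 WT and 4 CHD4 M195I/M195I. The authors deposited whole-number counts per gene for each library and a table of the series; 0 values differed between them. The submitters' processing notes name Trimmomatic 0.36, STAR 2.5.2b, featureCounts of Subread 1.5.2 and GRCm38/mm10; for strand setting and annotation release, neither is given in the sources used here. Groups were taken from the genotype labels.

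Genes were filtered with filterByExpr (minimum count 10), scaled by TMM and tested with edgeR 4.0.16 (quasi-likelihood, robust) in R 4.3.3, Benjamini-Hochberg adjusted over 16372 genes at 0.05. The standard error is the log2 fold change divided by the square root of F. The biological coefficient of variation was 0.0908, and the script was tested on simulated data. At 18375951 to 21341235 counts a library, 3 counts, taken as the limit that a count of 0 allows, are 0.141 to 0.163 CPM; this covers counting error only. Alternatives used DESeq2 1.42.0, limma 3.58.1 (voom), other scalings, filters and thresholds, covariates, a replicate block, and fits leaving out libraries. The splits by airway RNA (Scgb3a2 above or below 10 CPM) were chosen after seeing the data. Log2 offsets of covariates were 0.5.

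The members and gene lists were chosen with earlier results of these data known. Values per library are given for members called over all libraries, those whose call changes without mutant replicate 1, and the 5 most abundant per kilobase of exon; other lists are given by counts and up to 2 called genes per direction. One gene of the pathway lists is not reported here. Same-numbered WT and mutant libraries were treated as unpaired.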

Additional observations from a re-analysis of the deposited data

Results flagged for a closer look

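Each of the 38 genes had 1 set of 4 libraries per genotype, 76 sets in all. In 5 of the 76 sets (6.58%), 1 library lay apart from the other 3 by more than Dixon's 95% critical value. Chance marks about 1 in 20 sets, a rate near that of these 5. Mutant replicate 1 was the low library in 3 of them. Oasl2 was at 13.1 CPM there, Ifi44 at 2.06 CPM and Bst2 at 15.6 CPM. These 3 are 7.89% of the 38 genes, where mutant replicate 1 was marked as low in 92 of the 16372 genes tested (0.562%). WT replicate 3 was the high library in the other 2, with Ifih1 at 9.64 CPM and Usp18 at 5.39 CPM. The part of any technical or biological difference between these hearts was not tested.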

How the results depend on the processing

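No member was called lower under any alternative. The count of 5 called higher was between 4 and 7 under DESeq2, limma-voom, RLE, upper quartile and library-total scaling, a mean of at least 1 CPM, no robust fit, other thresholds, no mitochondrial or haemoglobin genes and the table of the series. It was 9 with no filter, 9 with the airway covariate, 1 with the Xist covariate, 17 in libraries with airway RNA and 2 in libraries without. It ranged from 4 to 21 when 1 library was left out, with 21 without mutant replicate 1. The cause was not tested.

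The median of the 38 log2 fold changes ranged from 0.16 to 0.50 when 1 library was left out. Of all genes higher in mutants, 942 became 1856 with library totals, 140 with Xist, 609 in libraries with airway RNA, 595 in those without, 392 at an adjusted p of 0.01 and 1427 at 0.1, and 579 to 850 when 1 library was left out (579 without WT replicate 1). Of all genes lower in mutants, 1226 became 186 with Xist, 812 in libraries without airway RNA and 644 at 0.01.

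Log2 fold changes that changed sign with Xist were those of Ifit1 (-0.20), Ifit3 (-0.89), Ifit3b (-0.94), Isg15 (-0.27), Irf7 (-0.21), Irf9 (-0.089), Oasl1 (-0.45), Rsad2 (-0.024), Usp18 (-0.49), Ifi27 (-0.087), Xaf1 (-0.27), Zbp1 (-0.018), Rtp4 (-0.27), Cmpk2 (-0.28) and Gbp3 (-0.19). Library totals turned Ifit2 (0.045), Stat2 (0.013) and Mx2 (0.025), and limma-voom turned Ifit3b (-0.094). Libraries with airway RNA gave Stat2 0.10, Mx1 0.31, Mx2 0.24 and Bst2 0.13. Libraries without it gave Ifit3 -0.27, Ifit3b -0.68, Usp18 -0.10, Ifi27 -0.032, Xaf1 -0.11, Rtp4 -0.37 and Gbp3 -0.14. Leaving out 1 library gave ranges across 0 for Ifit2 (-0.062 to 0.043), Ifit3 (-0.18 to 0.52), Ifit3b (-0.26 to 0.34), Stat2 (-0.11 to 0.072), Mx1 (-0.51 to 0.047), Mx2 (-0.31 to 0.22), Ifi27 (-0.057 to 0.078), Xaf1 (-0.019 to 0.31), Bst2 (-0.16 to 0.10) and Rtp4 (-0.021 to 0.30).

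Same-numbered libraries had correlations of deviations of -0.52, 0.77, 0.56 and 0.10 for numbers 1 to 4, so the numbers were not taken as pairs. With the replicate number as a block, 5 members were called higher, Ifit3b was at -0.026, and 1023 genes were higher and 1432 lower. Genes with few counts, such as Zbp1, Mx1 and Ifit3b, have the widest errors at this depth.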
